A study of Mus musculus with 12 samples.

Results

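The immune cell genes of brown adipose tissue were followed as 44 genes that mark macrophages, monocytes, dendritic cells, lymphocytes, neutrophils and mast cells, out of 61210 genes in the count table. They were taken by gene name from a written list, and each name was found once. The rule used no measured values, but the list was chosen with earlier results of these data known. The list comprised 3 pan-leukocyte or pan-myeloid genes, 13 genes of tissue macrophage identity, 2 of monocyte recruitment, 8 of macrophage activation, 5 of antigen presentation by MHC class II and dendritic cells, 6 of T, B and NK cells, 2 of neutrophils and 5 of mast cells. Of the 44 genes, 39 passed the low-count filter and were tested.

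Total RNA of the brown fat depot called iBAT was sequenced from wild type C57BL/6N mice aged 20 weeks. The 4 groups of 3 libraries each were normal chow diet (NCD) at room temperature, NCD with cold exposure at 4 °C for 24 h, high-fat diet (HFD) at room temperature, and HFD with the same cold exposure. HFD started at the age of 8 weeks and lasted 12 weeks, and no group carried an altered gene. Replicates 1 and 2 of every group were labelled batch 1 and replicate 3 of every group batch 2. The labels do not tie the libraries to separate animals, so p-values measure only the spread between these libraries.

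Brown adipose tissue burns fat to make heat when sympathetic nerves are activated by cold, and between its adipocytes it holds resident macrophages, a few mast cells and lymphocytes. Macrophages clear dying cells and lipid, and in obese adipose tissue they are known to accumulate and to take on a lipid-handling state marked by genes such as Lgals3, Trem2 and Gpnmb. Mast cells store proteases in granules and depend on the receptor Kit, which other cell types carry as well.

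The libraries held 15136861 to 46740702 estimated counts, with 34067515 or more in each of the 4 libraries of batch 2. Expression is given as CPM, the counts scaled to a common library size after TMM normalisation, and 3 counts correspond to 0.0699 to 0.193 CPM. The summed brown adipocyte genes were high throughout, at 14937 to 35676 CPM. Summed skeletal muscle genes varied up to 9.41-fold between libraries of 1 group, from 548.7 to 17141 CPM over all libraries. Genes of lymph node stroma summed to 2.06 to 10.4 CPM, with Glycam1 at 0 counts in every library.

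The first question was how cold and diet changed the immune genes. A gene was called when the quasi-likelihood test of edgeR gave a Benjamini-Hochberg adjusted p below 0.05 over 16737 genes and the log2 fold change exceeded 0.5 in size. Cold on NCD lowered 2 of the 39 tested members and raised 0, where 6.27% of all genes were called (3.72% higher and 2.55% lower). Cold on HFD raised 3 and lowered 2, where 9.58% of all genes were called (5.39% higher and 4.19% lower). HFD at room temperature changed 0 members, with 2 at an unadjusted p under 0.05 in edgeR and 1 called by DESeq2, where 2.09% of all genes were called (0.992% higher and 1.09% lower). HFD in the cold raised 4 and lowered 0, where 2.06% of all genes were called higher, 2.69% lower and 4.75% in either direction. Averaged over the diets, cold raised 2 and lowered 3 members (12.7% of all genes called, 6.09% higher and 6.6% lower), and averaged over the temperatures HFD raised 3 and lowered 1 (7.8% called). The 2 members raised by cold averaged over the diets, Lgals3 and S100a8, were kept in only 5 and 3 of the 12 fits that left out 1 library. In all, 10 members were called in at least 1 of these contrasts and 29 tested members in none. The share of all genes called in at least 1 contrast was not counted, so these numbers have no background. In bulk tissue, fewer cells of a type and less RNA per cell cannot be told apart.

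The direction of the list differed between the comparisons. For HFD in the cold the median log2 fold change of the 39 members was 0.79 and 33 lay above 0, against a median of 0.02 and 51.8% of genes above 0 over all genes. For cold on NCD the median was -0.31 with 7 above 0, against -0.01 and 49% over all genes. For cold on HFD it was 0.31 with 24 above 0, against -0.04 and 46.3% over all genes, and for HFD at room temperature 0.09 with 24 above 0, against 0.03 and 54.1%. Averaged over the diets 16 members lay above 0 for cold, against 46.8% of all genes, and averaged over the temperatures 32 for HFD, against 54.3%. Single libraries carried part of this. Without HFD cold replicate 3, 31 of 39 members had a higher mean CPM on HFD than on NCD in the cold, with a median log2 ratio of mean CPM of 0.39 instead of 0.78. Without NCD cold replicate 3 the number was also 31, with a median of 0.68, and these counts were not made without both libraries. For cold on HFD, leaving out HFD cold replicate 3 turned the median from 0.31 to -0.11 and the number with a higher mean from 23 to 16. For cold on NCD, leaving out NCD cold replicate 3 moved the median from -0.31 to -0.10 and the number with a higher mean from 7 to 12. The direction of the list for cold on HFD therefore rested on 1 library.

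HFD cold replicate 3 was the highest of all 12 libraries for 22 of the 39 members, among them 10 of 13 macrophage identity genes and 4 of 5 mast cell genes. Within its group it was highest for 33 of 39, and HFD cold replicate 2 was lowest for 24. NCD cold replicate 3 was the lowest of the 12 libraries for 18 members, among them 8 macrophage identity genes and 4 mast cell genes. In HFD cold replicate 3 the summed fibroblast genes stood at 849 CPM against 401 and 497 in replicates 1 and 2, and the summed muscle genes at 5166 CPM against 549 and 717. The part of these tissue differences in the immune levels was not tested.

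**Figure D1:**
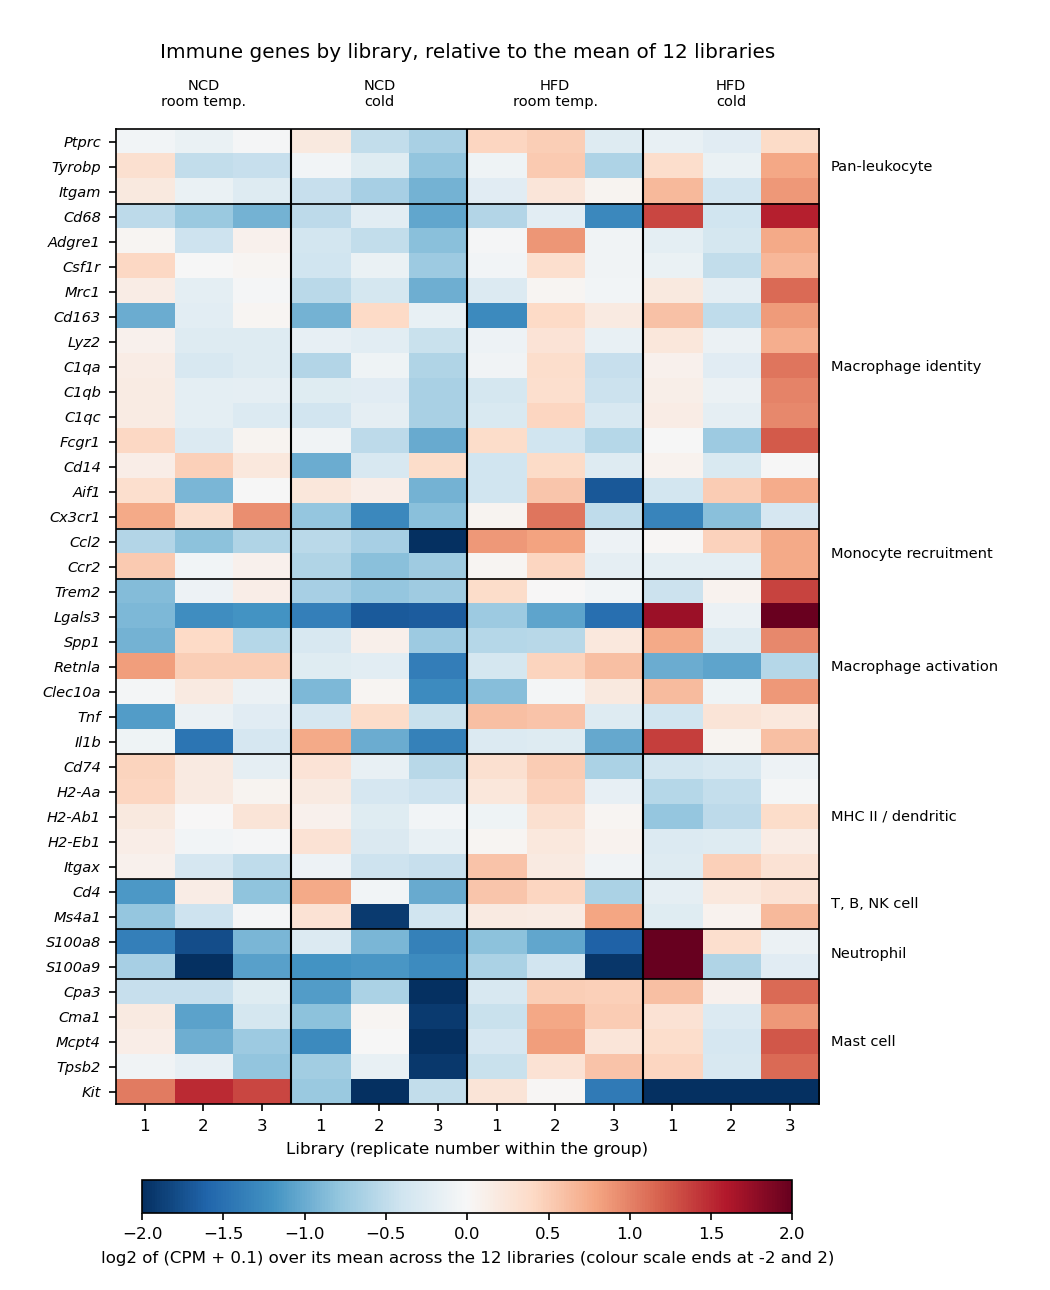
Each row is 1 of the 39 tested immune genes and each column 1 library, grouped by diet and temperature. Colour gives log2 of CPM + 0.1 over the gene's mean across the 12 libraries, from blue (low) to red (high). The column of HFD cold replicate 3 is red for most macrophage and mast cell genes, the column of NCD cold replicate 3 is blue for many of them, and Kit runs from red at NCD room temperature to dark blue at HFD cold.

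Among the macrophage activation genes the clearest change was that of Lgals3, which encodes galectin-3, a sugar-binding protein of phagocytes. It stood at 10.5, 8.14 and 8.45 CPM in replicates 1 to 3 at NCD room temperature, 7.45, 6.00 and 6.08 at NCD cold, 11.8, 9.36 and 6.75 at HFD room temperature, and 64.2, 18 and 77 at HFD cold. All 3 HFD cold libraries lay above the other 9, with replicate 2 far below its group mates. Cold on HFD raised Lgals3 by 2.52 on the log2 scale (SE 0.43, edgeR adjusted p = 0.0045), and HFD in the cold by 3.03 (SE 0.44, edgeR adjusted p = 0.0040). Each of these 2 calls was kept when any of the 12 libraries was left out, but neither with batch 1 alone. Within batch 1 the log2 ratio of mean CPM was 1.96 for cold on HFD and 2.61 for HFD in the cold, and within batch 2, with 1 library a group, it was 3.51 and 3.66.

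Cd68, a lysosomal glycoprotein of macrophages, was measured at 4.48, 3.84 and 3.33 CPM at NCD room temperature, 4.47, 5.59 and 3.10 at NCD cold, 4.32, 5.59 and 2.60 at HFD room temperature, and 16.7, 4.89 and 19.2 at HFD cold. HFD cold replicates 1 and 3 were high, while replicate 2 lay inside the range of the other groups. Cold on HFD raised Cd68 by 1.72 (SE 0.45, edgeR adjusted p = 0.032). The call was lost without HFD room temperature replicate 1 or 3 or without HFD cold replicate 1 or 3, where the log2 change fell as low as 1.38. With replicate numbers as a block within diet the change was 1.60 and the call was also lost (edgeR adjusted p = 0.061). The log2 ratio was 1.12 within batch 1 and 2.89 within batch 2.

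The sequences before the starts of Lgals3 and Cd68 are shown because these were the macrophage genes raised by cold on HFD. They are the 250 bases upstream of the RefSeq start in build GRCm38.p6, with capitals for the PU.1 core GAGGAA and the CCAAT box CCAAT in either orientation. The Lgals3 window is chr14:47373610-47373859 on the plus strand, inside the span of the gene in the GENCODE annotation (chromosome 14, 47367751 to 47386160), and it holds 1 CCAAT box, on the other strand. The Cd68 window is chr11:69666171-69666420 on the minus strand, just outside the annotated gene (chromosome 11, 69664213 to 69666153), and it holds 3 CCAAT boxes and 1 PU.1 core that directly follows the first of them.
Lgals3: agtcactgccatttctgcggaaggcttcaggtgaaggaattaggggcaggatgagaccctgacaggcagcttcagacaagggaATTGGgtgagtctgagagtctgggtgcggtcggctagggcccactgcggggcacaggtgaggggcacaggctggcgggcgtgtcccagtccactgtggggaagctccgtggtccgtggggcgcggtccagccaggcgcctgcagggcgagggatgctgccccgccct
Cd68: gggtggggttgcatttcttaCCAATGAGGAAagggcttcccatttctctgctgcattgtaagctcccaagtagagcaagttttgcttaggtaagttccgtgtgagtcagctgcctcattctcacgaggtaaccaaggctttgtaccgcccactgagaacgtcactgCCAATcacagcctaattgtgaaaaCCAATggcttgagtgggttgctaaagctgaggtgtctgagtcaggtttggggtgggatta

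PU.1 is a transcription factor of myeloid cells. Of the 44 members, 31 had a window in the RefSeq table. The letters GAGGAA, on either strand and in the 250 bases before the start, were found for 17 of these 31 genes, in 18 of their 34 windows (52.9%), against 23.3% of all 32851 windows in the table. By lineage they stood before 6 of 9 macrophage identity genes, 4 of 6 macrophage activation genes, 3 of 4 lymphocyte genes, 1 of 4 mast cell genes and 0 of 3 antigen presentation genes. CCAAT was found in 32.4% of member windows against 33.8% of all, and stood in all 3 matched windows of antigen presentation genes. These are letter matches only.

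The ratio of the activation genes to macrophage identity genes was looked at after the values had been seen. Lgals3 over the sum of the complement genes C1qa, C1qb and C1qc, in CPM without length correction, was 0.174 to 0.186 at NCD room temperature, 0.125 to 0.184 at NCD cold and 0.134 to 0.258 at HFD room temperature. At HFD cold it was 0.379 to 1.10, above the other 9 libraries. Cd68 over Adgre1, the gene of the F4/80 antigen, was 0.536 to 1.64 at HFD cold, 0.235 to 0.374 at HFD room temperature, 0.475 to 0.674 at NCD cold and 0.269 to 0.437 at NCD room temperature, so that the 2 cold groups overlapped. In HFD cold replicate 2 the macrophage identity genes had a median level of 0.801 relative to their means over the 12 libraries. The single genes ran from 0.534 to 1.47. Lgals3 stood at 18 CPM there, against at most 11.8 CPM in the other groups. The part of macrophage number in the Lgals3 level was not tested.

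A further gene of macrophage identity and a pan-myeloid gene were called for HFD in the cold. Mrc1, the mannose receptor CD206, stood at 37.4, 29.5 and 33.0 CPM at NCD room temperature, 23.0, 26.4 and 17.1 at NCD cold, 27.9, 34.5 and 32.5 at HFD room temperature and 38.4, 29.8 and 74.2 at HFD cold. The cold groups of both diets did not overlap, and HFD cold replicate 3 was far above all other libraries. HFD in the cold raised Mrc1 by 1.10 (SE 0.29, edgeR adjusted p = 0.0497). Itgam, the integrin CD11b of myeloid cells, stood at 5.35, 4.24 and 3.87 CPM at NCD room temperature, 3.33, 2.88 and 2.37 at NCD cold, 3.93, 5.49 and 4.83 at HFD room temperature and 7.34, 3.52 and 8.51 at HFD cold. Its cold groups did not overlap between the diets, and HFD in the cold raised it by 1.19 (SE 0.30, edgeR adjusted p = 0.045). Both calls were kept in only 1 of 12 leave-one-out fits. Without HFD cold replicate 3 the change was 0.63 for Mrc1 and 0.94 for Itgam. Within batch 1 the log2 ratio was 0.46 for Mrc1 and 0.81 for Itgam, and within batch 2 it was 2.12 and 1.85.

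For HFD in the cold all 13 macrophage identity genes had a log2 fold change above 0, with a median of 0.72, against 0.02 over all genes. Relative to each gene's mean over the 12 libraries, their median level was 1.06, 0.801 and 1.80 in HFD cold replicates 1 to 3. At NCD cold it was 0.760, 0.859 and 0.606. Replicate 3 was thus the highest at HFD cold and the lowest at NCD cold, and the other replicates overlapped between the diets. The direction of these 13 genes was not counted again without single libraries. Of the 13, 7 reached an unadjusted p under 0.05 and 1 was called, where 3802 of 16737 genes reached that p and 4.75% were called. The libraries of both groups did not overlap for 14 of the 39 members, 13 of them higher on HFD, against 25.2% of all genes without overlap (12.1% higher). These 13 included the macrophage genes Adgre1, Lyz2, C1qb and C1qc and the lipid-sensing receptor Trem2. For cold on NCD the libraries did not overlap for 10 members, all lower in the cold, against 27.8% of all genes (15.2% higher and 12.6% lower). For cold on HFD there were 5 such members against 30.3%, and for HFD at room temperature 3 against 25.9%. The 3 subunit genes of C1q lie next to each other on chromosome 4, with gaps of 3616 and 2851 bases, and are thus not independent in position.

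**Figure D2:**
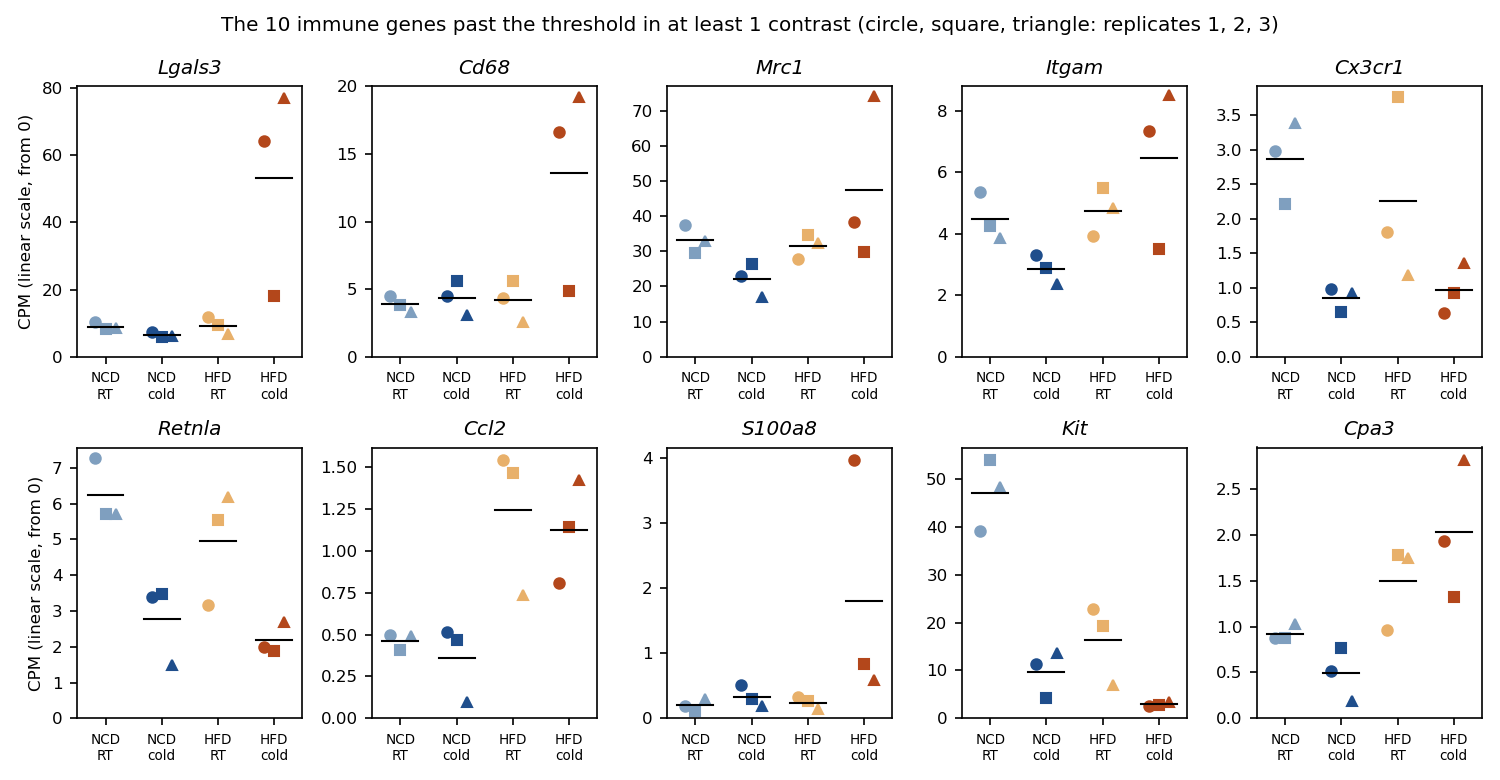
CPM on a linear axis from 0 for the 10 immune genes called in at least 1 contrast. Each marker is 1 library (circle, square and triangle for replicates 1, 2 and 3) and each line the mean of a group of 3. Lgals3, Cd68 and S100a8 are spread widely at HFD cold, while the 3 HFD cold values of Kit lie together between 2.52 and 3.43 CPM.

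A pair of macrophage genes fell with cold averaged over the diets. Cx3cr1, the fractalkine receptor of monocytes and some tissue macrophages, was measured at 2.99, 2.21 and 3.38 CPM at NCD room temperature, 0.975, 0.647 and 0.923 at NCD cold, 1.80, 3.76 and 1.19 at HFD room temperature and 0.630, 0.925 and 1.35 at HFD cold. The NCD groups were apart and the HFD groups overlapped. Averaged over the diets cold lowered Cx3cr1 by a log2 change of -1.46 (SE 0.31, edgeR adjusted p = 0.0061), a call kept in 12 of 12 leave-one-out fits. On NCD alone the change was -1.74 (SE 0.44, edgeR adjusted p = 0.035), lost when any of the 6 NCD libraries was left out, over which it ranged from -1.89 to -1.59. The log2 ratio on NCD was -1.68 within batch 1 and -1.87 within batch 2.

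Retnla encodes a secreted protein (RELM alpha) of alternatively activated macrophages. It stood at 7.28, 5.70 and 5.71 CPM at NCD room temperature, 3.38, 3.47 and 1.49 at NCD cold, 3.16, 5.54 and 6.18 at HFD room temperature and 1.98, 1.89 and 2.70 at HFD cold. On both diets every cold library lay below every room temperature library. Averaged over the diets the change was -1.18 (SE 0.24, edgeR adjusted p = 0.0055), kept in 12 of 12 leave-one-out fits. On HFD alone it was -1.18 (SE 0.34, edgeR adjusted p = 0.047), kept in 2 of 12, with -0.98 without HFD room temperature replicate 3. On NCD alone Retnla was not called, and with the replicate block within diet it was, which brought the members called there from 2 to 3. The HFD log2 ratio was -1.17 within batch 1 and -1.19 within batch 2.

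Other activation genes stayed under the threshold. Clec10a, the lectin MGL1, ranged from 1.68 to 4.30 CPM at NCD cold and from 3.92 to 7.67 at HFD cold. Trem2 reached 2.40 CPM in HFD cold replicate 3 and was at or below 1.16 in all other libraries. The cytokine genes Tnf and Il1b were at or below 0.644 and 1.04 CPM in every library. Il1b was highest in HFD cold replicate 1 and was spread from 0.352 to 1.04 CPM in that group, above the 0.113 to 0.261 of HFD room temperature. Arg1, the arginase of alternatively activated macrophages, had 0 to 5 counts per library and was not tested.

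Of the monocyte recruitment genes, Ccl2 encodes the chemokine MCP-1 and Ccr2 its receptor. Ccl2 was measured at 0.498, 0.407 and 0.490 CPM at NCD room temperature, 0.516, 0.471 and 0.0947 at NCD cold, 1.55, 1.46 and 0.734 at HFD room temperature and 0.810, 1.14 and 1.42 at HFD cold. All 6 HFD libraries lay above all 6 NCD libraries. Averaged over the temperatures HFD raised Ccl2 by 1.58 (SE 0.38, edgeR adjusted p = 0.021), a call lost in 1 of 12 leave-one-out fits, that without HFD cold replicate 3, where the change was 1.46. The counts were low, 4 to 61 per library. Ccr2 ranged from 3.35 to 3.96 CPM at NCD cold against 5.87 to 8.77 at NCD room temperature and 5.31 to 10.4 at HFD cold, without overlap in either pair and without a call.

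The neutrophil genes were near the detection limit outside 1 group. S100a8, a calcium-binding alarmin of neutrophils, stood at 0.187, 0.116 and 0.294 CPM at NCD room temperature, 0.516, 0.294 and 0.189 at NCD cold, 0.322, 0.261 and 0.141 at HFD room temperature and 3.96, 0.837 and 0.583 at HFD cold. All HFD cold libraries lay above the others, replicate 1 by far. Cold on HFD raised S100a8 by 2.92 (SE 0.77, edgeR adjusted p = 0.032), and without HFD cold replicate 1 the change was 1.62 and the call was lost. It was also lost without any 1 of the HFD room temperature libraries. The log2 ratio was 3.04 within batch 1 and 2.05 within batch 2. S100a9, its partner 22596 bases away on chromosome 3, reached 7.16 CPM in the same library, against 0.660 and 0.886 in the others of its group, and was not called. The 6 genes of lymph node stroma summed to 10.4 CPM in that library, against 6.69 and 3.87 in its group. Among them 1, the chemokine gene Cxcl13, rose with cold on HFD by 4.59 (SE 1.16, edgeR adjusted p = 0.027), while Glycam1 was at 0. The part of such tissue in the neutrophil genes was not tested.

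The genes of MHC class II presentation were not called. Cd74, the invariant chain, ranged from 51.5 to 62.3 CPM at HFD cold, 45.3 to 80.4 at NCD cold, 43.0 to 94.7 at HFD room temperature and 58.7 to 90.6 at NCD room temperature. H2-Aa ranged from 23.7 to 34.4 CPM at HFD cold, 26.4 to 40.1 at NCD cold, 31.6 to 48.8 at HFD room temperature and 36.6 to 47.4 at NCD room temperature. H2-Ab1 stood at 12.3, 14.7 and 27.5 CPM at HFD cold and between 17.9 and 26.5 in the other 9 libraries, so that this group held both its lowest and its highest value. Of the 5 genes with Itgax, the dendritic cell integrin CD11c, 0 were called in any contrast. Averaged over the diets H2-Aa passed the adjusted p (edgeR, 0.045) with a log2 change of -0.47, short of the fold threshold. For HFD in the cold the median log2 fold change of the 5 genes was -0.15, beside 0.72 for the 13 macrophage identity genes. The difference between the 2 lists was not tested.

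Lymphocyte genes were too low to follow. Of the 6 genes, Cd3e (1 to 10 counts per library), Cd8a (2 to 17), Nkg7 (0 to 5) and Cd79a (1 to 14) were not tested, so that a change in T, cytotoxic, NK or B cells would not have been detectable through them at this depth. The T cell coreceptor gene Cd4, also carried by some macrophages, had 4 to 36 counts and the B cell gene Ms4a1 (CD20) 1 to 36. Neither was called in any contrast.

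**Figure D3:**
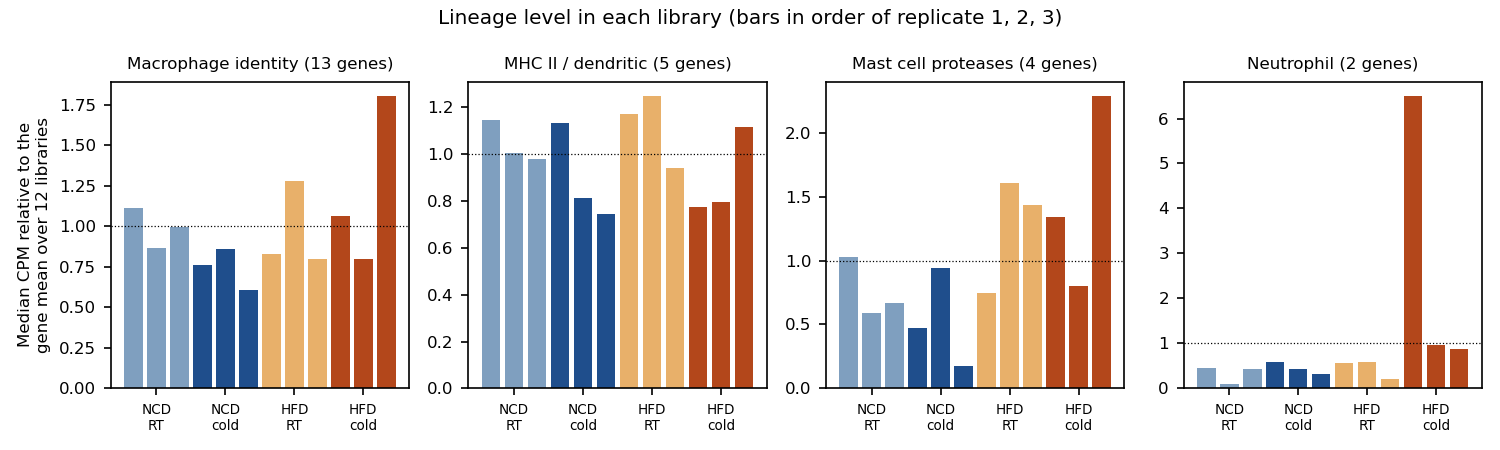
Bars give, for each of the 12 libraries, the median over the genes of a lineage of CPM relative to the gene's mean across the libraries, with the dotted line at 1. Macrophage identity genes reach 1.80 in HFD cold replicate 3 and mast cell proteases 2.29, while the neutrophil genes reach 6.5 in HFD cold replicate 1.

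The genes of the mast cell list split. Kit, the receptor of stem cell factor, stood at 39.1, 54.1 and 48.3 CPM at NCD room temperature, 11.4, 4.18 and 13.6 at NCD cold, 22.9, 19.3 and 7.06 at HFD room temperature and 2.52, 2.82 and 3.43 at HFD cold. The means were 47.2 ± 7.53, 9.70 ± 4.91, 16.4 ± 8.29 and 2.92 ± 0.461 CPM (SD, n = 3 each). On both diets every cold library lay below every room temperature library, and at each temperature every HFD library lay below every NCD library. Cold lowered Kit, with a log2 change of -2.27 on NCD (SE 0.45, edgeR adjusted p = 0.012) and -2.47 on HFD (SE 0.46, edgeR adjusted p = 0.0073). These calls were kept in all 12 leave-one-out fits and under all alternatives listed in the closing part. Averaged over the temperatures HFD lowered Kit as well, with a log2 change of -1.63 (SE 0.32, edgeR adjusted p = 0.0080), lost with batch 1 alone. Within batches the cold log2 ratio was -2.59 and -1.83 on NCD and -2.98 and -1.04 on HFD, for batches 1 and 2.

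Cpa3, the granule carboxypeptidase of mast cells, went the other way with diet. It was measured at 0.871, 0.872 and 1.03 CPM at NCD room temperature, 0.516, 0.765 and 0.189 at NCD cold, 0.966, 1.78 and 1.75 at HFD room temperature and 1.94, 1.32 and 2.82 at HFD cold. In the cold all HFD libraries were above all NCD libraries. HFD in the cold raised Cpa3 by 2.14 (SE 0.48, edgeR adjusted p = 0.030), kept in 7 of 12 leave-one-out fits. It was lost without NCD room temperature replicate 3, NCD cold replicate 1 or 3, or HFD cold replicate 1 or 3, with a lowest value of 1.66 without NCD cold replicate 3. Averaged over the temperatures HFD raised it by 1.42 (SE 0.33, edgeR adjusted p = 0.018), kept in 12 of 12. Both calls were lost with batch 1 alone, and that for HFD in the cold also with only the libraries compared. At NCD cold the counts of Cpa3 were 8 to 13 per library. Within batches the log2 ratio for HFD in the cold was 1.35 and 3.9. The chymase genes Cma1 and Mcpt4 and the tryptase gene Tpsb2 were highest in HFD cold replicate 3 (2.05, 3.08 and 2.70 CPM) and lowest in NCD cold replicate 3 (0.213, 0.142 and 0.237 CPM), and were not called.

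The 4 protease genes summed to 2.96 to 4.60 CPM at NCD room temperature, 0.781 to 4.18 at NCD cold, 3.54 to 7.48 at HFD room temperature and 4.09 to 10.7 at HFD cold. Kit over this sum, in CPM without length correction, was 8.5 to 18.2 at NCD room temperature, 1.06 to 6.45 at HFD room temperature and 0.322 to 0.688 at HFD cold. At NCD cold it ran from 1.00 to 17.4, where replicate 3 had the lowest protease sum of all libraries. The 3 HFD cold libraries thus had the lowest ratios of the 12, with proteases at or above most other libraries. The receptor genes Fcer1a and Ms4a2 of the mast cell list were at or below 0.420 CPM everywhere. Kit is also carried by other cell types, and which cells its RNA came from was not tested.

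**Figure D4:**
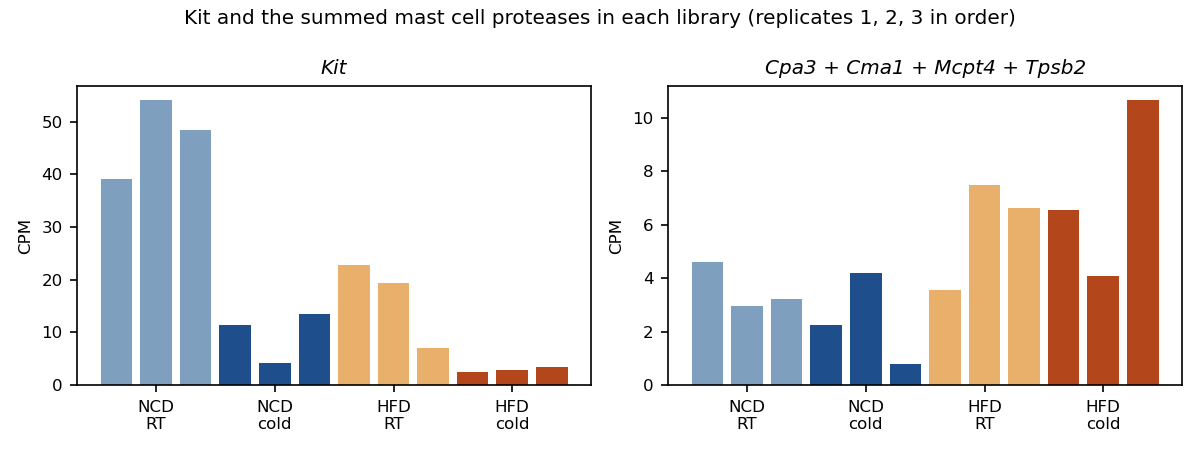
Left, Kit in CPM, and right, the summed CPM of the 4 mast cell protease genes, in each of the 12 libraries. Kit is lowest at HFD cold (2.52 to 3.43 CPM), where the protease sum is 4.09 to 10.7 CPM.

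The sequences before Kit and Cpa3 are shown because these genes of the mast cell list changed in opposite directions with diet. They are again the 250 bases upstream of the RefSeq start in GRCm38.p6, with capitals for GAGGAA and for the GATA core AGATAA, the letters bound by the GATA factors of mast cells. The Kit window is chr5:75574737-75574986 on the plus strand and runs into the start of the gene as annotated by GENCODE (chromosome 5, 75574916 to 75656722). The Cpa3 window is chr3:20242182-20242431 on the minus strand, directly before the annotated gene (chromosome 3, 20215620 to 20242181). The Kit window holds 1 PU.1 core and 0 matches to AGATAA, and the Cpa3 window 1 AGATAA, 46 bases before the start. Over the members AGATAA was found for 5 of 31 genes, and in 9.99% of all windows.
Kit: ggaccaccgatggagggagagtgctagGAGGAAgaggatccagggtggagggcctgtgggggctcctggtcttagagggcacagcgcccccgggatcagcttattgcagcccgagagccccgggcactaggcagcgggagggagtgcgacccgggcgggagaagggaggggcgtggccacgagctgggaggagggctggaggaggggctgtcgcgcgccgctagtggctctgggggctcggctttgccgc
Cpa3: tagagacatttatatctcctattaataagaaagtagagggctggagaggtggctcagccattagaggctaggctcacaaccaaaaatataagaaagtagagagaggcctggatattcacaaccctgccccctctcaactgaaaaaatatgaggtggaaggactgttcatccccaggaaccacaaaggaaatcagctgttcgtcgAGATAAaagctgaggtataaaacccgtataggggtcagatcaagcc

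Whether diet altered the response to cold was tested by the interaction of both. In edgeR 0 of the 39 members and 0 of all 16737 genes passed (0% called), with 7 members and 1091 genes at an unadjusted p under 0.05. DESeq2's likelihood ratio test called 58 genes and 1 member, Lgals3. The cold effect on Lgals3 was larger on HFD by 2.99 on the log2 scale (SE 0.59, edgeR adjusted p = 0.30). Every NCD cold library was below every NCD room temperature library, and every HFD cold library above every HFD room temperature library. Over the 39 members the median interaction was 0.57 with 30 above 0, against -0.03 and 45.8% of all genes. Across the 4 groups 8 members passed, namely Cd68, Cx3cr1, Ccl2, Lgals3, Retnla, S100a8, Cpa3 and Kit, where 24.3% of all genes did.

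**Figure D5:**
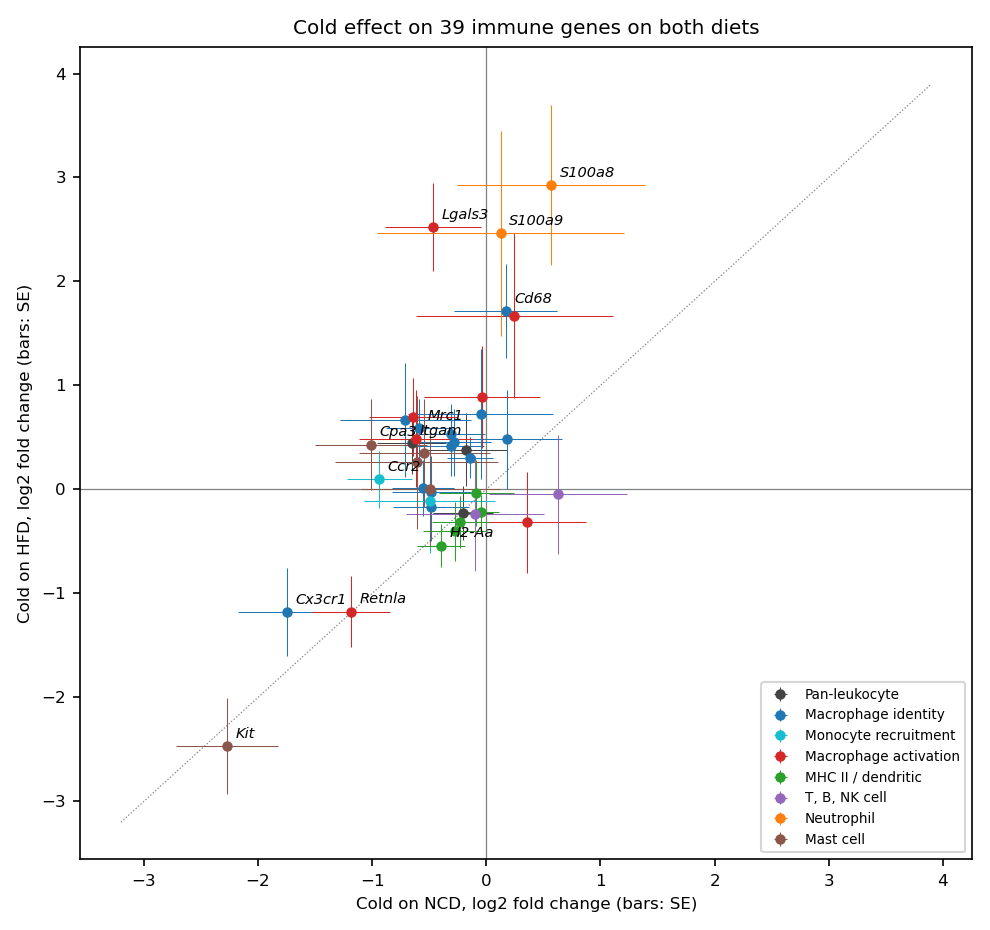
Log2 fold change for cold on NCD (horizontal) and for cold on HFD (vertical) of the 39 tested immune genes, with bars for the SE and colours for the lineage. The dotted line marks equal effects. Kit, Cx3cr1 and Retnla lie in the lower left, and Lgals3 and Cd68 lie far above the line.

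Further genes of the same pathways came from a list of 118 names, 116 of them in the table and 65 tested. Cold on NCD raised 3 and lowered 0 of them, cold on HFD raised 8 and lowered 1, HFD at room temperature raised 1 and lowered 1, and HFD in the cold raised 4 and lowered 1. Over all genes the shares called higher were 3.72%, 5.39%, 0.992% and 2.06% in the same order, and those called lower 2.55%, 4.19%, 1.09% and 2.69%. Among 27 tested macrophage genes of this list, 25 had a log2 fold change above 0 for HFD in the cold, with a median of 0.68, against 51.8% and 0.02 over all genes. Of these 27 genes 2 were called higher and 1 lower. Their direction was not counted again with single libraries left out.

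Gpnmb, a transmembrane glycoprotein of lipid-laden macrophages, had the largest rise of the list. It stood at 173, 23.2 and 79.1 CPM at HFD cold and between 2.44 and 6.75 CPM in the other 9 libraries. All HFD cold libraries were above the rest and replicate 2 was again the lowest of them. Cold on HFD raised it by 4.09 (SE 0.61, edgeR adjusted p = 0.0023) and HFD in the cold by 4.81 (SE 0.64, edgeR adjusted p = 0.0025). Both calls were kept in 12 of 12 leave-one-out fits and lost with batch 1 alone (edgeR adjusted p = 0.052 and 0.096), where the changes were 4.41 and 4.71.

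Inflammatory and chemokine genes of the list were called as well. Saa3, an acute phase protein gene, was at 1.26, 0.881 and 1.12 CPM at HFD cold and at or below 0.294 CPM elsewhere, and cold on HFD raised it by 3.06 (SE 0.62, edgeR adjusted p = 0.0098). The monocyte chemokine gene Ccl8 was at 0.990, 0.704 and 4.66 CPM at HFD cold and 0.141 to 0.575 at HFD room temperature. Its rise of 2.78 with cold on HFD (SE 0.75, edgeR adjusted p = 0.036) was lost without HFD cold replicate 3, at 1.43, and without NCD room temperature replicate 2 or 3 or HFD room temperature replicate 1 or 3. It was also lost with the replicate block within diet (2.46, edgeR adjusted p = 0.081), with batch or replicate number as a term, with only the libraries compared and with batch 1 alone, at 0.99. Cxcl12, the ligand of CXCR4, rose with cold on NCD by 1.18 (SE 0.19, edgeR adjusted p = 0.0052), at 159 to 213 CPM against 74.7 to 86.5. The interleukin 4 receptor gene Il4ra also rose with cold on NCD, by 0.74 (SE 0.17, edgeR adjusted p = 0.025). Nos2, the inducible nitric oxide synthase, fell with cold averaged over the diets by 0.72 (SE 0.20, edgeR adjusted p = 0.024). The fatty acid binding protein gene Fabp5 was lower on HFD, at 61.0 to 96.7 CPM against 169 to 206 at room temperature (log2 change -1.28, SE 0.22, edgeR adjusted p = 0.014). Saa3, Cxcl12 and Fabp5 lost these calls with batch 1 alone. Il4ra lost its call without any of the NCD libraries but NCD cold replicate 3, Nos2 without NCD room temperature replicate 1, NCD cold replicate 3, HFD room temperature replicate 1 or 2 or HFD cold replicate 3, and Fabp5 without NCD room temperature replicate 1 or HFD room temperature replicate 2 or 3.

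Ighm, the heavy chain of IgM in B cells, was the called lymphocyte gene. It stood at 8.71, 11 and 7.27 CPM at NCD room temperature, 7.11, 11.3 and 13.5 at NCD cold, 73.7, 66.0 and 33.9 at HFD room temperature and 13.2, 26.8 and 28.6 at HFD cold. The HFD room temperature libraries lay above all others. HFD at room temperature raised it by 2.69 (SE 0.37, edgeR adjusted p = 0.0053), kept in 12 of 12 leave-one-out fits, and cold on HFD lowered it, with a log2 change of -1.34 (SE 0.35, edgeR adjusted p = 0.033), kept in 6 of 12 and lost without NCD room temperature replicate 1 or any of the HFD libraries but HFD room temperature replicate 3. The B cell gene Cd79a had at most 14 counts per library, and Ms4a1 at most 36. With HFD at room temperature Ms4a1 lay higher without overlap, at 0.575 to 0.932 against 0.249 to 0.490 CPM, and was not called. Over all genes 13% were higher without overlap there. Cd79a overlapped, at 0.0523 to 0.451 against 0.147 to 0.311 CPM.

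Hdc, the histidine decarboxylase that makes histamine in mast cells and granulocytes, rose with cold while Kit fell. It was at 2.43, 2.62 and 1.91 CPM at NCD room temperature, 3.55, 5.94 and 4.00 at NCD cold, 3.48, 3.29 and 3.73 at HFD room temperature and 7.43, 8.06 and 10.7 at HFD cold. On both diets every cold library was above every room temperature library. Averaged over the diets the change was 1.14 (SE 0.16, edgeR adjusted p = 0.00071), kept in 12 of 12 leave-one-out fits.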

How the data were processed

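Total RNA of iBAT was sequenced after rRNA depletion with the Illumina TruSeq chemistry in 12 libraries. The authors quality-filtered the reads with cutadapt and estimated counts with salmon against GENCODE M22 and RNAcentral 5 (GRCm38). The deposited table holds these estimated counts per gene as whole numbers, with replicates kept apart. Versions and the use of strand are not given in the sources used here, so whether reads of overlapping antisense genes were told apart is not known. The labels name DESeq2 among the authors' tools.

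The 4 group means were fitted to all 12 libraries with edgeR 4.0.16 (quasi-likelihood, TMM, filterByExpr with a minimum count of 10, R 4.3.3), which tested 16737 genes. DESeq2 1.42.0 served as an alternative. Benjamini-Hochberg adjustment ran over all genes tested, and the SE was taken from the log2 fold change and its F value. The members and all lists were chosen with earlier results of these data known. Values in every library were printed for called members, and of the other pathway genes up to 3 rises and up to 3 falls per contrast with the largest changes were named. Gene positions came from GENCODE M21 on GRCm38 and upstream sequences from RefSeq.

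Estimated counts ranged from 15136861 to 46740702 per library. On simulated counts for HFD in the cold (16513 genes, 100 changed by each size), 33% of 2-fold and 92% of 4-fold changes were recovered, and 5 of 130 calls were false. The simulated libraries had no batch and no outlying library, and only genes above 1 CPM were changed. These shares therefore need not hold for the real libraries or for members at lower levels. Replicates of 1 group differed beyond counting noise (chi-square per gene of 23.3 or more), so no pair was a single library deposited again, and whether libraries came from the same RNA or animal was not tested. Deviations from the group means of libraries with the same number correlated at 0.219, 0.456 and 0.281 between the NCD temperatures. Between the HFD temperatures the same-number values were 0.155, 0.217 and 0.386. Unlike numbers within batch 1 correlated at -0.223 and -0.228 on NCD and at 0.134 and 0.106 on HFD. The main fit did not pair the libraries, so its cold p-values are unpaired. A replicate block within diet served as an alternative for the cold comparisons. Between the diets the same-number correlations were 0.365, -0.180 and -0.0385 at room temperature. In the cold they were 0.196, -0.211 and 0.0387, and the numbers were not taken as pairs between the diets. Alternatives were other scaling, filters, DESeq2, batch or replicate number as a term, batch 1 alone, only the libraries compared, no fold threshold, and leaving out each library.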

Additional observations from a re-analysis of the deposited data

Results flagged for a closer look

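Lgals3 differed with cold in opposite directions on the 2 diets without overlap of the libraries, but the fall on NCD was not called. Over all genes, 12.6% were lower without overlap for cold on NCD and 15.9% higher without overlap for cold on HFD. The share of genes with both was not counted. On NCD the cold libraries were lower (6.00 to 7.45 against 8.14 to 10.5 CPM) and on HFD they were higher (18 to 77 against 6.75 to 11.8 CPM). The difference between both effects was 2.99 on the log2 scale. The edgeR interaction test gave an unadjusted p of 0.00034 and an adjusted p of 0.30, so it did not pass over all genes.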

How the results depend on the processing

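The number of members called depended on the tool, the batch and single libraries. The counts in this and the next paragraph are of members alone. They are given without the share of all genes in the same fit, so they are not compared with all genes. DESeq2 called 4 members for cold on NCD, 1 for HFD at room temperature (Kit), 12 for HFD in the cold and 1 for the interaction. Batch 1 alone called 1 for cold on NCD, 1 for cold on HFD, 0 for HFD in the cold, 1 for HFD averaged over the temperatures and 3 across the 4 groups. With only the libraries compared, 2 were called for cold on HFD and 1 for HFD in the cold. Without a low-count filter, 1 was called for HFD at room temperature, 7 for HFD in the cold and 1 for the interaction. For HFD in the cold, batch as a term and the replicate block across the groups each left 2. With the replicate block within diet, 3 were called for cold on NCD (Retnla added), 4 for cold on HFD (Cd68 lost), 5 for cold averaged over the diets and 0 for the interaction, and it changed no other member's call.

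Leaving out 1 library at a time gave 1 to 3 members for cold on NCD, 2 to 5 for cold on HFD, 3 to 6 for cold averaged over the diets, 0 for HFD at room temperature throughout, 1 to 6 for HFD in the cold, 3 to 7 for HFD averaged over the temperatures, 0 to 1 for the interaction and 3 to 11 across the 4 groups. The lowest count for HFD in the cold came without NCD room temperature replicate 3, NCD cold replicate 1 or 3 or HFD cold replicate 1 or 3, and the highest without HFD cold replicate 2. The counts of members with a higher mean CPM, without HFD cold replicate 3 or NCD cold replicate 3, were added after the data had been seen. Of the single-gene changes, taken over called members and called pathway genes together, 910 values kept their call, 271 lost it and 0 reversed. The alternative without a fold threshold keeps every call by its construction and is among the 910. The cause of these losses was not tested. DESeq2 size factors moved the median over all genes by less than 0.1 in each contrast. With 3 libraries a group, an exact permutation test of 1 gene could not go below p = 0.1.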
